A study of Rattus norvegicus with 6 samples.

Results

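The genes examined here present peptides on class II molecules of the major histocompatibility complex (MHC, called RT1 in the rat) in the thyroid of non-pregnant (NP) rats and of rats in late pregnancy (LP, day 18, where day 1 is the day of the vaginal plug). They were chosen by symbol, as 10 genes: the class II chains RT1-Ba, RT1-Bb, RT1-Da and RT1-Db1, the peptide editors RT1-DMa and RT1-DMb, the invariant chain Cd74, the transactivator Ciita and the costimulatory ligands Cd80 and Cd86. Of the 15388 genes in the count tables, 9 were among these 10, and RT1-DMb was not analysed here. All animals were adult Sprague-Dawley rats, an outbred strain, and the labels name no transgene or other treatment. Poly(A)+ RNA of whole thyroid tissue was sequenced, with 3 samples for each group, so the reads come from follicular cells together with every other cell in the piece of tissue. In such bulk RNA, fewer cells of a type and less RNA per cell cannot be told apart.

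MHC class II molecules are pairs of an alpha and a beta chain that carry peptides from taken-up proteins to the cell surface, where CD4+ T cells read them. The chains are assembled around the invariant chain, which blocks the groove until it is digested in the endosome, and RT1-DM then exchanges the remaining fragment for other peptides. Dendritic cells, B cells and macrophages are the main cells that make these molecules, and thyroid follicular cells are known to make them in autoimmune thyroid disease.

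The tables held between 2752144 and 3449857 counted reads for each sample, and 3 reads, the least that was taken as detectable, correspond to between 0.893 and 1.08 normalised CPM (read counts relative to library size, with library sizes scaled by TMM, which sets aside the genes that differ most). Thyroglobulin (Tg) took between 22.9% and 24.5% of the reads, and the tissue label held. Replicates 2 and 3 of either group did not differ beyond the noise of drawing reads (chi-square 1.02 per degree of freedom in NP and 0.995 in LP, against 3.70 to 4.11 for replicate 1 and another sample of its group). Each such pair therefore entered a mean ± SD once, which leaves n = 2, and results are also given with their counts summed. Skeletal muscle markers took between 0.00494% and 0.00987% of the reads in NP and between 0.772% and 0.813% in LP, and 21 of the 22 tested rose. Acta1, the other one, had 0, 166 and 144 reads in the NP samples against 0, 186 and 185 in the LP samples (log2 fold change 0.11, adjusted p = 0.930 by edgeR). The part of this difference in the results given here was not tested. Leaving these markers out of the scaling changed no call among the 6 class II presentation genes with enough reads. TMM already sets aside genes that differ so much, so this says nothing about muscle in the LP samples.

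Both chains of RT1-D, the rat counterpart of HLA-DR, fell in LP in the main test by edgeR, by 0.28 and 0.34 on the log2 scale. A second count test, given below, called neither, and with replicates 2 and 3 summed RT1-Da alone passed by edgeR. None of the 6 class II presentation genes with enough reads rose. By the quasi-likelihood test of edgeR, with p-values adjusted by Benjamini-Hochberg over all genes tested, 2 of the 6 genes with enough reads fell (RT1-Da and RT1-Db1) at an adjusted p-value below 0.05, and 4 did not pass. In this comparison 11.7% of all 11738 genes tested fell and 15.3% rose, or 27% in either direction. No gene of the 6 rose at an unadjusted p-value below 0.05 either. By DESeq2, a second count test, 0 of the 6 passed after adjustment and 1 had an unadjusted p-value below 0.05. Their median log2 fold change was -0.23, against -0.0089 over all genes tested. No gene of the 6 changed more than 2-fold with an adjusted p-value below 0.05, whereas 5.44% of all genes did. Genes that passed the filter only because they were high in 1 group had to differ, so these counts describe the 6 genes and do not speak for all 10.

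RT1-Da encodes the alpha chain of RT1-D (ENSRNOT00000048332). It had 230, 254 and 271 reads in the NP samples against 226, 242 and 224 in the LP samples, or 82.5, 83.5 and 89.3 normalised CPM in NP and 72.4, 72.0 and 66.7 in LP. Every LP sample thus lay below every NP sample, which held for 18.9% of all genes tested (ranges were apart in either direction for 40.1%). The means were 84.4 ± 2.8 CPM (SD, n = 2) in NP and 70.9 ± 2.2 CPM in LP. The log2 fold change was -0.28 (standard error, SE, 0.069, 95% interval -0.42 to -0.13, adjusted p = 0.00613 by edgeR). With replicates 2 and 3 summed the adjusted p-value of RT1-Da was 0.0249 by edgeR, and by DESeq2 on the 6 samples it was 0.0952, with the same fold change.

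RT1-Db1 encodes the beta chain that pairs with it (ENSRNOT00000000522). It had 94, 117 and 119 reads in the NP samples against 93, 103 and 94 in the LP samples, or 33.7, 38.5 and 39.2 normalised CPM against 29.8, 30.7 and 28.0. Here too the highest LP sample lay below the lowest NP sample. The means were 36.3 ± 3.6 CPM (SD, n = 2) and 29.6 ± 0.34 CPM, for a log2 fold change of -0.34 (SE 0.11, 95% interval -0.56 to -0.11, adjusted p = 0.0277 by edgeR). This call was less stable than that of RT1-Da. The adjusted p-value by edgeR was 0.068 with replicates 2 and 3 summed (0.0261 when the replicate block was added to that), 0.0791 without NP replicate 2, 0.0941 without NP replicate 3 and 0.0908 without LP replicate 3, and by DESeq2 it was 0.222. Class II beta chains have close copies in the rat genome, and how reads were split between RT1-Db1 and the copy RT1-Db2, which had between 2 and 12 reads in each sample, is uncertain.

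RT1-Ba and RT1-Bb encode the alpha and beta chain of RT1-B, the counterpart of HLA-DQ. RT1-Ba (ENSRNOT00000077143) had 61, 84 and 76 reads in the NP samples against 78, 79 and 74 in the LP samples, and the 3 LP values of 25.0, 23.5 and 22.0 normalised CPM all fell within the NP range of 21.9 to 27.6. Its log2 fold change was -0.085 (SE 0.13, 95% interval -0.36 to 0.19, adjusted p = 0.693 by edgeR). RT1-Bb (ENSRNOT00000082136) had 73, 92 and 87 reads in the NP samples against 74, 79 and 93 in the LP samples. Its NP values lay between 26.2 and 30.2 normalised CPM, and LP replicates 1 and 2 lay below them at 23.7 and 23.5 while LP replicate 3, at 27.7, lay among them. The log2 fold change was -0.18 (SE 0.12, 95% interval -0.44 to 0.075, adjusted p = 0.307 by edgeR). The intervals of both RT1-B chains include the fold changes of the RT1-D chains. The number of RT1-D reads for each RT1-B read was 2.42, 2.11 and 2.39 in NP and 2.10, 2.18 and 1.90 in LP, with overlapping groups (p = 0.2 by an exact two-sided permutation test, adjusted to 0.4 over 4 ratios chosen after the counts were seen). A difference between the changes of RT1-D and RT1-B was therefore not shown.

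Cd74, the invariant chain (ENSRNOT00000025344), had the most reads of the 9 genes, with 573, 598 and 684 in NP and 652, 649 and 670 in LP. In normalised CPM these were 205, 197 and 225 in NP and 209, 193 and 200 in LP, and the groups overlapped. The means were 208 ± 3.9 CPM (SD, n = 2) and 203 ± 8.9 CPM. The log2 fold change of Cd74 was -0.061 (SE 0.063, 95% interval -0.20 to 0.073, adjusted p = 0.537 by edgeR), so that a decrease of the size seen for RT1-Da or RT1-Db1 lay outside its interval.

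**Figure D1:**
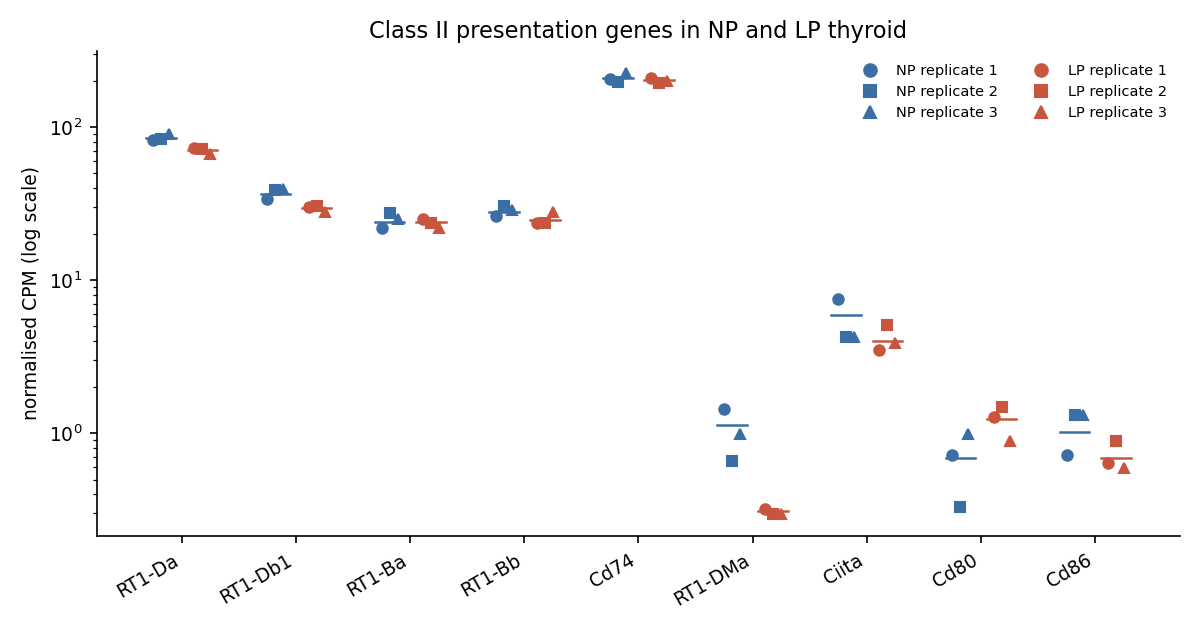
Normalised CPM (log axis) of the 9 class II presentation genes in each sample, with NP in blue and LP in red, marker shapes for replicates 1 to 3, and bars at the mean with replicates 2 and 3 counted as 1 sample. All LP points of RT1-Da and RT1-Db1 lie under all their NP points, Cd74 overlaps, and levels of different genes are not scaled by length.

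The 4 class II chains together were set against their invariant chain. Their summed level was 164, 180 and 182 normalised CPM in NP and 151, 150 and 144 in LP, so every LP sample was lower. Of single genes tested, 18.9% lay apart in this direction. The RT1-D chains, already lower by themselves, made up most of the sum, while RT1-Ba and RT1-Bb each overlapped between the groups. The sum and the ratio built on it therefore rest largely on RT1-D and do not show a decrease shared by all 4 chains. For each chain read there were 1.25, 1.09 and 1.24 Cd74 reads in NP and 1.38, 1.29 and 1.38 in LP, a ratio that does not depend on the scaling of the libraries. The means were 1.21 ± 0.061 (SD, n = 2) and 1.36 ± 0.034, and the groups did not overlap. An exact two-sided permutation test of the 3 NP against the 3 LP values gave p = 0.1, the smallest that 3 against 3 samples allow, and 0.4 after adjustment over the 4 ratios. These tests take the 3 samples of a group as independent, although replicates 2 and 3 were so alike. The ratio within the pairs did not separate the groups. RT1-Da reads for each RT1-Db1 read lay between 2.17 and 2.45 in NP and between 2.35 and 2.43 in LP, and RT1-Ba reads for each RT1-Bb read lay between 0.836 and 0.913 in NP and between 0.796 and 1.05 in LP (p = 0.4 for each by the exact permutation test).

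**Figure D2:**
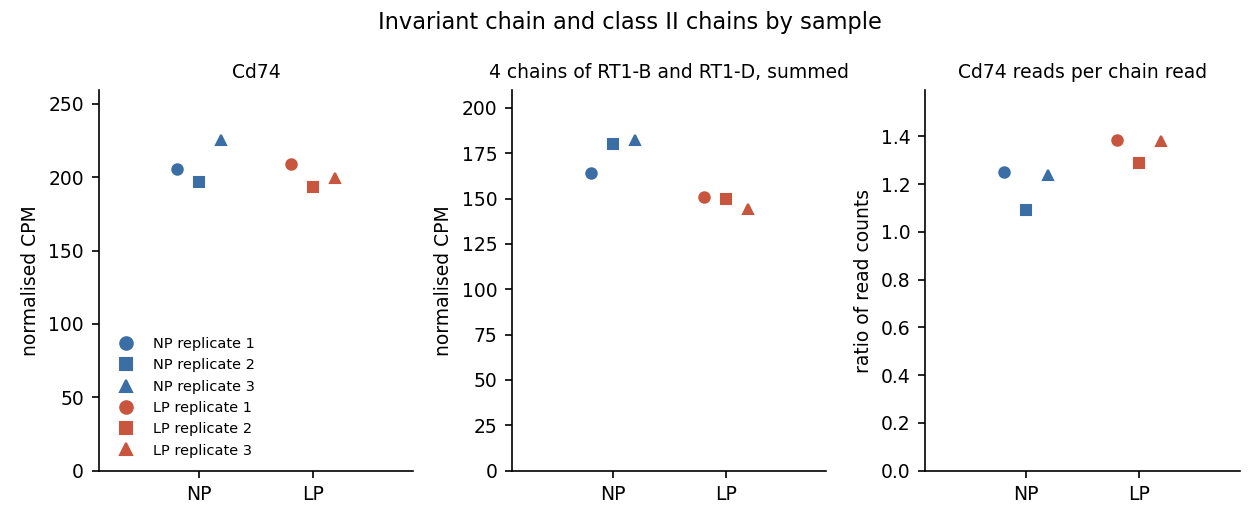
Cd74 in normalised CPM, the sum of RT1-Ba, RT1-Bb, RT1-Da and RT1-Db1 in normalised CPM, and Cd74 reads for each read of the 4 chains, each for the 3 NP (blue) and 3 LP (red) samples, on axes from 0. The chain sums are 164 to 182 in NP and 144 to 151 in LP, and the ratio is 1.09 to 1.25 in NP and 1.29 to 1.38 in LP.

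Ciita is the master regulator of class II transcription (ENSRNOT00000003572). It had few reads, 21, 13 and 13 in NP and 11, 17 and 13 in LP, or 7.53, 4.27 and 4.28 normalised CPM against 3.53, 5.06 and 3.87. NP replicate 1 was the highest sample and the others of both groups overlapped. The log2 fold change was -0.35 (SE 0.32, 95% interval -1.01 to 0.32, adjusted p = 0.472 by edgeR), and -0.039 without NP replicate 1. A change of Ciita of the size seen for RT1-Da was not detectable at this depth.

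Ciita does not bind DNA itself but joins factors that sit on a shared promoter module of class II genes, an X box bound by the RFX complex and a Y box, an inverted CCAAT sequence, bound by NF-Y. Because the chains are read from such promoters, the stretch around the Y box is shown for the chain genes, RT1-DMa and Cd74, with or without an X box before it, and for RT1-DOb, which has the full module, from the RefSeq promoter windows of build GRCr8 (250 bases before to 50 after each start). Of the 10 genes, 8 had a window, and Ciita and RT1-DMb had none. Capitals mark ATTGG (the Y box), and before it a match to a 14-base core of the X box or, where only that was found, to its last 10 bases, a shorter form chosen after the sequences were seen.
RT1-Da, chr20:4515306-4515380, plus strand: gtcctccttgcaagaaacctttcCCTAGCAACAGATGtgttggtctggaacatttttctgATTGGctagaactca
RT1-Db1, chr20:4560228-4560302, minus strand: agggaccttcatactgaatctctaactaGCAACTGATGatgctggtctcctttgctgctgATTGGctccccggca
RT1-Ba, chr20:4576954-4577028, plus strand: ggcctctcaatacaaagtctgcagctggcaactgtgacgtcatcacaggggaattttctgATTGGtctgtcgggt
RT1-Bb, chr20:4604165-4604239, minus strand: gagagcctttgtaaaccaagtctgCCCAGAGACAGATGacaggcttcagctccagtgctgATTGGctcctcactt
RT1-DMa, chr20:4712385-4712459, minus strand: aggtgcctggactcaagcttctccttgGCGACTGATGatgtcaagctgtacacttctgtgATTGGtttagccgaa
Cd74, chr18:56526957-56527031, plus strand: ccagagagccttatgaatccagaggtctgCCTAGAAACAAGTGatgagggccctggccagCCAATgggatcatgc
RT1-DOb, chr20:4627592-4627666, minus strand: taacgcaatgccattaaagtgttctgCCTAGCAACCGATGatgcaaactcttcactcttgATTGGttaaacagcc

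The X box core followed on the same strand by ATTGG after 15 to 30 bases was found in RT1-Da and RT1-Bb, with gaps of 23 and 22 bases, in RT1-DOb, a class II chain outside the 10 genes, with a gap of 20 bases, and in 0.0926% of all 33469 windows when both strands were searched. With the shorter form, RT1-Db1 and RT1-DMa were added, with gaps of 22 and 23 bases, against 0.786% of all windows. RT1-Ba had the Y box without these X box letters before it. So did RT1-DOa, the other class II chain searched outside the 10 genes, with its Y box 107 bases before the start. In the 4 chain genes the Y box began between 43 and 80 bases before the start and stood in the longer form CTGATTGG, which contains ATTGG and was found in 3.5% of all windows. In Cd74 the X box core was followed after 17 bases by CCAAT, the Y box in the other direction, which began 189 bases before the start. The share of all windows with this arrangement was not counted. No such pair was found in the windows of Cd80 and Cd86, and Cd80 had 2 windows. ATTGG alone was in 37.5% of all windows and the X box core alone in 3.79%, on either strand. RT1-Da, RT1-Bb and RT1-DOb, which share the full module, had log2 fold changes of -0.28, -0.18 and 0.20, the last without the filter. These matches describe letters in the windows and not bound sites.

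RT1-DMa, Cd80 and Cd86 had too few reads for the filter. RT1-DMa, the alpha chain of the peptide editor (ENSRNOT00000080583), had 4, 2 and 3 reads in NP and 1 read in each LP sample, at or near the limit of 3 reads. Every LP sample lay below every NP sample, as held for 18.9% of all genes tested. The share among genes below the filter, to which RT1-DMa belongs, was not counted. Its log2 fold change without the filter was -1.62 (SE 0.83, 95% interval -3.36 to 0.12, adjusted p = 0.201 by edgeR). Cd86, a costimulatory ligand of Cd28 on T cells, had 2, 4 and 4 reads in the NP samples against 2, 3 and 2 in the LP samples, and without the filter a log2 fold change of -0.64 (95% interval -2.04 to 0.76, adjusted p = 0.583 by edgeR). Cd80, the other ligand of Cd28, had 2, 1 and 3 reads in the NP samples against 4, 5 and 3 in the LP samples, and a log2 fold change of 0.81 (95% interval -0.61 to 2.23, adjusted p = 0.471 by edgeR without the filter). With so few reads, a difference of Cd80 or Cd86 was not detectable.

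Further class II chains were at the same low level. RT1-DOa and RT1-DOb form RT1-DO, which restrains RT1-DM. RT1-DOa had 10, 9 and 6 reads in the NP samples against 11, 7 and 10 in the LP samples, and RT1-DOb 11, 7 and 7 reads in the NP samples against 9, 11 and 12 in the LP samples. Their log2 fold changes without the filter were 0.0080 and 0.20, with adjusted p-values of 0.992 and 0.791 by edgeR. RT1-Db2 had 5, 3 and 2 reads in the NP samples against 3, 8 and 12 in the LP samples (log2 fold change 1.02, adjusted p = 0.247 by edgeR without the filter). RT1-Ha, a counterpart of an HLA-DP chain, had at most 1 read in a sample.

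Of the factors that drive class II genes, Irf8 fell and those of the promoter module itself did not pass the test. Of 11 listed factors 9 had enough reads, with 0 that rose and 1 that fell by edgeR, and a median log2 fold change of 0.015. One more, Irf1, was higher at an unadjusted p-value below 0.05, and DESeq2 called Irf8 alone. Irf8, a transcription factor of myeloid and B lineage cells, had 482, 460 and 461 reads in the NP samples against 257, 293 and 267 in the LP samples, with no overlap. Its mean went from 162 to 82.9 normalised CPM, a log2 fold change of -0.93 (SE 0.068, adjusted p = 8.45e-09 by edgeR). For scale, the 10 leukocyte markers given below summed to 134 to 141 normalised CPM in NP and 119 to 123 in LP. Which cells gave the Irf8 reads was not tested. The RFX subunits Rfx5, Rfxap and Rfxank had log2 fold changes of 0.14, -0.13 and 0.033, and the NF-Y subunits Nfya, Nfyb and Nfyc of -0.17, -0.12 and 0.015, with adjusted p-values between 0.263 and 0.932 by edgeR. Creb1 and Irf4 were below the filter, with between 2 and 8 reads in each sample, and without it their log2 fold changes were -0.27 and -0.053.

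Genes for digestion in the endosome moved in both directions. Of 13 listed genes with counts, 11 were tested, of which 4 rose and 3 fell by edgeR, with a median log2 fold change of -0.083. Lgmn, the asparaginyl endopeptidase, rose by 0.41 on the log2 scale from 183, 181 and 179 reads in NP to 232, 295 and 272 in LP (adjusted p = 0.000777 by edgeR). The aspartic protease Ctsd rose by 0.40, the carboxypeptidase Ctsz by 0.36 and the dipeptidyl peptidase Ctsc by 0.30 (adjusted p = 0.00244, 0.00576 and 0.0225 by edgeR). Cst3, the cystatin that inhibits cysteine cathepsins, fell by 0.59 from 2659, 3000 and 2917 reads to 1979, 2164 and 2160 (adjusted p = 3.76e-09 by edgeR). Ctsl, a cathepsin that cleaves the invariant chain in some cells and also thyroglobulin, fell by 0.49 (adjusted p = 1.47e-06 by edgeR), and March8, a ubiquitin ligase named here to complete the count, fell by 0.18 (adjusted p = 0.0477 by edgeR). DESeq2 called Lgmn, Ctsd, Cst3 and Ctsl of these 7. Ctss, the cathepsin that cleaves the invariant chain in antigen presenting cells, had 28, 43 and 45 reads in the NP samples against 39, 28 and 42 in the LP samples and a log2 fold change of -0.24 (adjusted p = 0.464 by edgeR). The log2 fold change of Ctsh was -0.14, with an adjusted p-value of 0.272, and of 0.0115 with the replicate number as a block. Below the filter, Ctse had between 1 and 7 reads in each sample (log2 fold change -0.96 without the filter), and March1 had at most 2.

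Interferon gamma is the main inducer of Ciita outside antigen presenting cells. Of 12 listed genes of its pathway with counts, 9 were tested, of which 3 rose and 1 fell by edgeR, with a median log2 fold change of 0.30. The receptor kinase Jak2 rose by 0.50 (adjusted p = 9.8e-05 by edgeR), and the chemokine Cxcl10 by 1.38, from 13, 13 and 9 reads in NP to 31, 29 and 42 in LP (adjusted p = 0.000733 by edgeR). Ifngr1, the ligand-binding receptor chain, fell by 0.29 (adjusted p = 0.00874 by edgeR, 0.102 by DESeq2), while DESeq2 called Jak2 and Cxcl10. Jak2 also serves other cytokines. Below the filter, Cxcl9 and Gbp4 had between 1 and 8 reads in each sample (log2 fold changes of 0.28 and 0.82 without the filter), Cxcl11 had at most 3, and Ifng itself was not analysed here.

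Among 9 genes of T cell costimulation with counts, 5 were tested, of which 1 rose and 1 fell by edgeR and 0 passed by DESeq2, with a median log2 fold change of 0.23. Icam1, an adhesion molecule for T cells, had 106, 129 and 116 reads in the NP samples against 158, 162 and 159 in the LP samples (log2 fold change 0.30, adjusted p = 0.0208 by edgeR, 0.197 by DESeq2). Icoslg, the ligand of Icos, had 33, 49 and 40 reads in the NP samples against 29, 23 and 34 in the LP samples (log2 fold change -0.65, adjusted p = 0.0278 by edgeR, 0.157 by DESeq2). Cd40, Lag3 and Vtcn1 were below the filter, with at most 12 reads in a sample, and had log2 fold changes of 1.00, 1.09 and 0.59 without it. Cd28, the receptor of Cd80 and Cd86, had at most 2 reads.

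**Figure D3:**
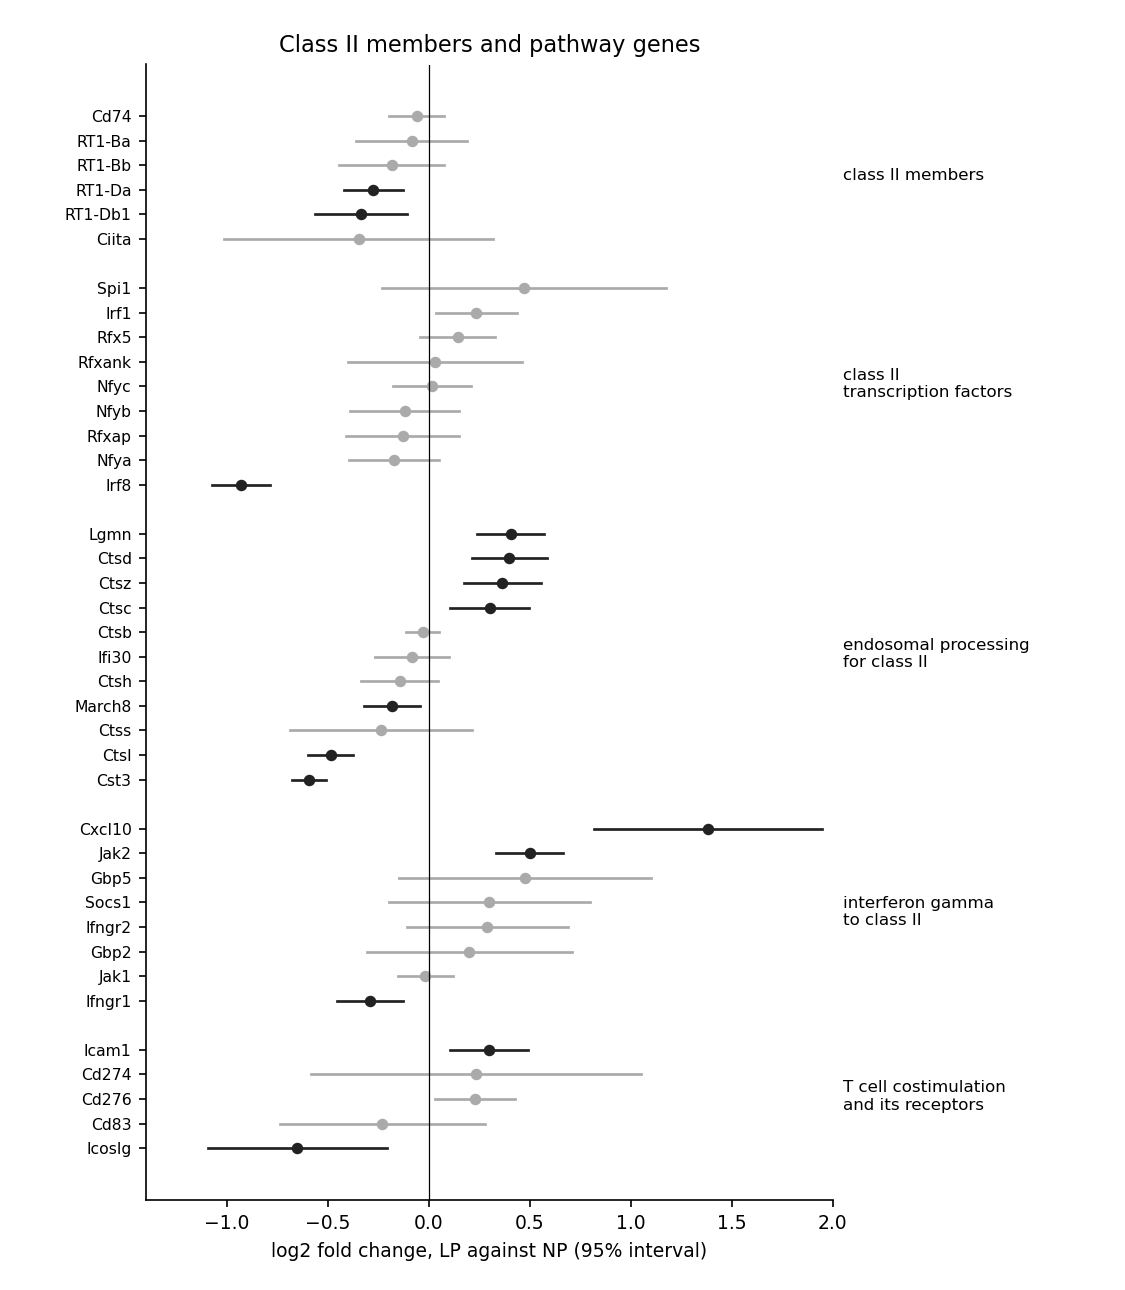
Log2 fold change of LP against NP with its 95% interval for the 6 class II presentation genes and the genes of 4 pathway lists that passed the filter, without 1 gene that is not reported here. Black points have an adjusted p-value below 0.05 by edgeR and grey points do not. RT1-Da and RT1-Db1 lie at -0.28 and -0.34, Irf8 at -0.93, and Jak2 and Cxcl10 to the right of 0.

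The markers of cells that carry class II molecules were set beside these genes. The summed level of 10 leukocyte markers lay between 134 and 141 normalised CPM in NP and between 119 and 123 in LP, with a median log2 fold change of -0.091 over the 8 tested, of which 1 fell, Cd48 (2 with the replicate block). Cd48 alone made up 66.2 to 69.4 of this sum in NP and 52.7 to 58.7 in LP. Without Cd48, left out after the values were seen, the sum of the other 9 was 66.0 to 71.3 in NP and 64.1 to 66.1 in LP, and the groups overlapped. Ptprc, the common leukocyte antigen, had a log2 fold change of 0.33 (adjusted p = 0.350 by edgeR). Of 12 macrophage markers tested 0 passed (3 at an unadjusted p-value below 0.05 by edgeR and 1 by DESeq2, and after adjustment 0 by DESeq2 and 1 with the replicate block), and their sum was 186 to 208 in NP and 203 to 224 in LP. The sum of 14 dendritic cell markers was 57.2 to 59.9 in NP and 58.7 to 62.8 in LP. Of the 5 tested 1 fell, and their median log2 fold change was 0.33. Defining markers of B and T cells were at or near 0. Cd79a and Cd79b had at most 3 reads and Cd3e, Cd3d and Cd3g at most 5 in a sample. None of the B cell (2 tested) or T cell markers (2 tested) had an unadjusted p-value below 0.05 by edgeR. Their sums were 56.7 to 58.1 in NP and 61.9 to 66.4 in LP for 9 B cell markers, and 22.1 to 25.3 and 18.2 to 23.4 for 12 T cell markers. The part of these lists in the values of RT1-Da and RT1-Db1 was not tested.

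Marker lists of other cells of the tissue were compared in the same way. The sum of 8 endothelial markers lay between 649 and 663 normalised CPM in NP and between 519 and 544 in LP. Of these markers 4 fell, 1 rose and 3 did not pass. Skeletal muscle markers, 24 in the tables, lay between 48.8 and 96.2 in NP and between 7925 and 8400 in LP. The parathyroid list, with 5 genes, lay between 10233 and 11034 in NP and between 9422 and 10168 in LP, so each sample held parathyroid tissue, and 1 of the 5, Pth, fell. The thyroid follicular list, with 3 of 12 that rose and 4 that fell, had sums that overlapped between the groups, from 232676 to 251176 in NP and from 242889 to 259474 in LP. Tg alone made up 223863 to 241790 of this sum in NP and 234657 to 250657 in LP. The overlap is therefore that of Tg and does not speak for the other genes of the list. The part of these tissues in the class II values was not tested.

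**Figure D4:**
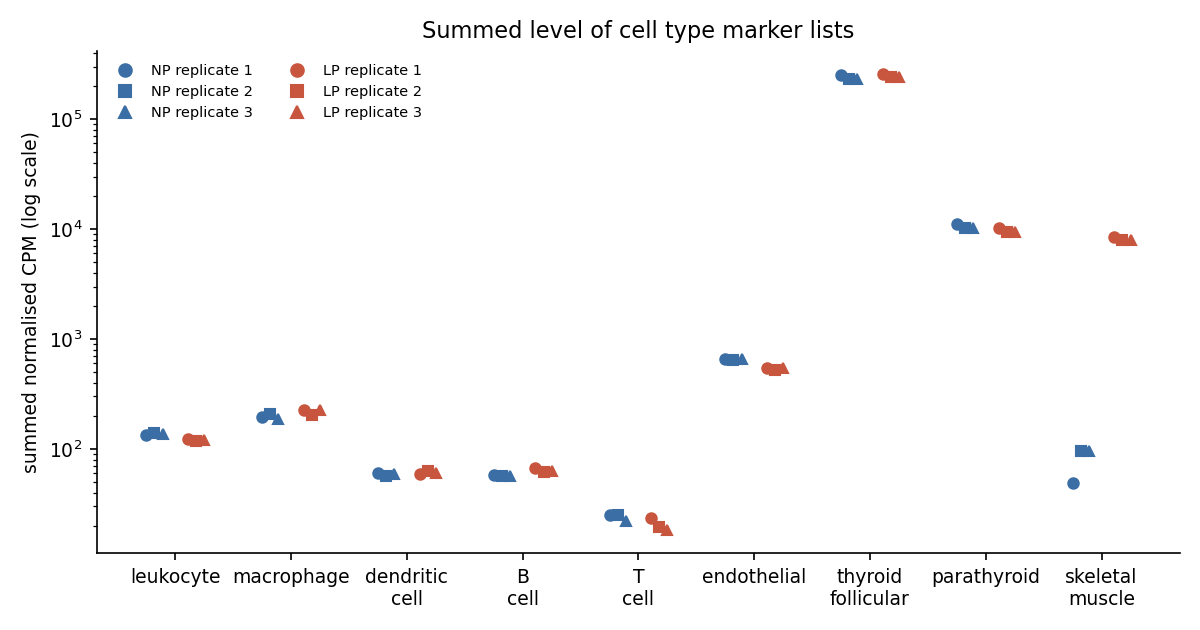
Summed normalised CPM (log axis) of 9 lists of cell type markers in the 3 NP (blue) and 3 LP (red) samples. The leukocyte list is 134 to 141 in NP and 119 to 123 in LP, and the skeletal muscle list is 48.8 to 96.2 in NP and 7925 to 8400 in LP.

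The genes whose profile over the 6 samples was closest to that of Cd74, by the root mean square difference of mean-centred log2(normalised CPM + 1) among 7942 other genes with a mean of at least 50 reads, were Ubald1, Gpsm1, Vps54, Cln6 and Zwint. The differences were between 0.0175 and 0.0261, and their log2 fold changes of LP against NP lay between -0.065 and -0.040. Like Cd74 these genes differed little between any of the samples, so the ranking picked genes with flat profiles. No class II chain was among them, which does not show whether the chains follow Cd74.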

How the data were processed

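Thyroid RNA of NP and LP rats was sequenced, with 3 samples for each group. The authors used TopHat 1.4.0 for mapping (rat genome build rn5), counted reads on Ensembl gene models with HTSeq and deposited raw counts for each gene without normalization. The counts went into edgeR 4.0.16 in R 4.3.3 (quasi-likelihood test, TMM, filterByExpr, Benjamini-Hochberg adjustment over the 11738 genes tested) and DESeq2 1.42.0 as an alternative. A standard error is the size of the log2 fold change over the root of F. CPM used the library sizes of this fit. The labels number the samples as repeats without saying which rat each came from, so p-values measure the spread between these samples, which may be technical. Deviations of same-numbered samples from their group means correlated across 7943 genes at 0.571, 0.297 and 0.264 for numbers 1, 2 and 3, but NP replicate 2 with LP replicate 3 gave 0.293 and NP replicate 3 with LP replicate 2 gave 0.266, so the numbers 2 and 3 were not told apart and replicate 1 stood against both. The number was a block in an alternative. The steps were also run on simulated counts, with independent samples and larger changes than those of RT1-Da and RT1-Db1. That run does not cover the likeness of replicates 2 and 3 or changes of this size. Genes named are the 10 members and, of each pathway list, those past the threshold (up to 6 with the smallest p-value), low-count genes by their reads, and the 5 genes closest to Cd74. Of the listed genes, 2 are not reported here by name, though they stay in the counts, medians and sums of their lists. Members, lists and motifs were chosen with earlier results of these data known. Levels were not scaled by gene length. Promoters are of GRCr8, another build than rn5. Intervals and limits cover counting error and the spread between these samples.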

Additional observations from a re-analysis of the deposited data

How the results depend on the processing

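Counts of 1 to 12 reads in a sample for RT1-DMa, Cd80, Cd86 and the RT1-DO genes limit what the depth can show. Of the 10 genes, 2 fell in the main test. With replicates 2 and 3 summed it was 1 (2 when a replicate block was added), with DESeq2 0, with a fold change above 2 also required 0, and between 1 and 2 when a replicate was left out (1 without NP replicate 2, NP replicate 3 or LP replicate 3). The number that rose was 0 throughout. Over all genes, 1794 rose and 1374 fell. With library totals alone in place of TMM 1461 rose and 2146 fell, with DESeq2 1219 and 703, and with a fold change above 2 also required 575 and 63. Of 89 recomputed fold changes of single class II genes, 83 stayed on their side of the threshold, 6 lost the call (RT1-Da 1 and RT1-Db1 5) and 0 reversed. The cause was not tested. The replicate block left RT1-Da (adjusted p = 0.00182) and RT1-Db1 (adjusted p = 0.0154 by edgeR) past the threshold, with 2 genes lower, and changed no call among the 6 genes tested.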

Other observations

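Some single markers of antigen presenting cells had values that the lists do not show. Clec10a, a lectin of dendritic cells and macrophages, had 41, 39 and 48 reads in the NP samples against 27, 37 and 34 in the LP samples (log2 fold change -0.53, adjusted p = 0.0406 by edgeR), and DESeq2 called no marker of the dendritic cell list. Cd48, a surface protein of leukocytes, had 190, 211 and 201 reads in the NP samples against 183, 177 and 185 in the LP samples (log2 fold change -0.29, adjusted p = 0.00691 by edgeR). C1qa, a complement chain made by macrophages, had 95, 123 and 105 reads in the NP samples against 146, 126 and 179 in the LP samples (log2 fold change 0.33, adjusted p = 0.0586 by edgeR), and its normalised CPM overlapped between the groups. Flt3, a receptor of dendritic cell precursors, had 7, 10 and 6 reads in the NP samples against 4, 5 and 5 in the LP samples, below the filter. These genes were picked after their values were seen. Other tested markers of the dendritic cell list had log2 fold changes of 0.46 (Cd1d1), 0.40 (Itgae), 0.33 (Fscn1) and -0.12 (Zbtb46). None of these passed after adjustment by edgeR.

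Of the thymus list, 2 genes of 10 were in the tables. Arpp21 had 1, 4 and 3 reads in the NP samples against 55, 49 and 37 in the LP samples (log2 fold change 3.93, adjusted p = 2.6e-07 by edgeR), while Ccl25, a chemokine of the thymic epithelium, had 3 reads in every sample of NP, against 0, 0 and 1 in those of LP. The 2 genes thus went in opposite directions. Skeletal muscle markers also rose in the LP samples, and the tissue that gave the Arpp21 reads was not tested.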
